A study of Mus musculus with 45 samples.

Results

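The layers of the wildtype (WT) mouse uterus were compared across genes: the mucosa scraped from the opened uterine horn (endometrium) against the muscular wall left behind (myometrium). The members were the 15 of 45 libraries whose titles name WT endometrium (7 libraries) or WT myometrium (8 libraries). They came from 7 mice, and the mouse number in the titles paired the layers. Mouse 12 had 2 myometrium libraries, whose counts were summed so that each mouse gave 1 value per layer. The mice were CD-1 females, an outbred stock, WT at Plag1, the gene deleted in the other mice of the study. They were sexually mature and young, and were superovulated with 5 IU of pregnant mare serum and, 2 days later, 5 IU of human chorionic gonadotropin (hCG), and they were killed on the day after that. Both layers of every mouse therefore shared genotype, stock and hormone treatment, and no untreated or cycling mouse was included. In the study superovulated females were mated with WT males, apart from those that gave unfertilised oocytes. Which of the mice compared here had been mated is not given in the sources used here. Scraping separates the layers only in part, so each sample is a mixture, and in bulk samples such as these more cells of a type and more RNA per cell cannot be told apart.

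The endometrium is lined by a luminal epithelium, which dips into glands and rests on a stroma rich in fibroblasts, vessels and leukocytes. The epithelium secretes proteins, mucins and fluid into the lumen under the control of estrogen and progesterone, and it is sealed by tight junctions. The myometrium consists of an inner circular and an outer longitudinal layer of smooth muscle, with vessels and connective tissue between them and a serosa outside. Its cells contract when calcium activates myosin through calmodulin and myosin light chain kinase, and oxytocin, prostaglandins and nitric oxide set the force.

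Expression was measured by STRT RNA-seq, a method that reads the 5′ end of each captured mRNA, so the values are counts of 5′ ends per gene. Reads sharing a molecular tag were joined in the RNA-seq processing that the study describes, where the uterus is not named separately, and PCR copies may therefore remain in the counts. The 15 libraries held 264095 to 868562 counts. Depth did not separate the layers (606970 ± 232890 counts in endometrium and 561020 ± 142540 in myometrium, SD, n = 7 mice; exact sign-flip permutation p = 0.625, two-sided), and neither did the share of synthetic spike-in molecules (1.7 ± 0.81% and 1.6 ± 0.26%, n = 7; exact permutation p = 0.734). Values are given below as CPM, with the lowest, the median and the highest of the 7 mice. CPM are counts scaled to the size of the library, adjusted by a factor that aligns the bulk of the genes (TMM). Before that adjustment a count of 3 in a single library corresponded to 3.49 to 11.7 CPM, depending on the library. The layers sat in different rows of the library plate, so row and layer cannot be told apart except in mouse 12, whose second myometrium library lay in a row of endometrium samples.

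The epithelial markers Krt8, Krt18, Epcam and Cdh1 were higher in endometrium, and the muscle markers Acta2, Des, Myh11 and Cnn1 in myometrium, within all 7 mice, but 3 mice had a library that stood apart. In mouse 3 the endometrium held 26920 CPM in sum over the 30 tested genes of the smooth muscle apparatus, against 1523 to 8355 CPM in the other mice. In the myometrium of mouse 5 the 6 tested keratins summed to 1073 CPM, against 102 to 291 CPM in the others. The endometrium of mouse 5 had the highest keratin sum (3965 CPM) and the lowest sum of blood endothelial genes (210.3 CPM, against 547 to 952 CPM in the others). That library was shallow, at 308575 counts, as was the endometrium of mouse 1 (264095), against 624601 to 856587 in the other endometria. Its spike-in share was 2.79%, against 1.13 to 1.44% in the deeper endometria, and 3 counts equalled 10.0 CPM there before the TMM adjustment. The endometrium of mouse 8 had 410.0 CPM of motile cilia transcripts, against 37.4 to 142 CPM in the others, and the highest level of Ovgp1. Dixon's test for a stray value, described at the end, did not flag the smooth muscle, myometrial keratin or cilia sums given here. Calls that were lost without 1 mouse, and fold changes that moved by more than 1.5 times, are given with the genes named.

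Of 13227 genes tested, 1973 differed between the layers at an adjusted p under 0.05 (edgeR quasi-likelihood test with the mouse as a block), which is 14.9% of the genes tested. Higher levels in endometrium were called for 1005 genes (7.60%) and higher levels in myometrium for 968 (7.32%). The median absolute log2 fold change of the called genes was 1.83 on the endometrial side and 1.66 on the myometrial side, and 444 and 349 genes differed by 4-fold or more. A total of 1123 called genes moved in the same direction in all 7 mice. The layers did not overlap, so that every mouse of 1 layer lay above every mouse of the other, in 404 genes (3.05% of those tested), 395 of which were called. In mice of plate rows A to C alone (5 mice) 1020 genes were called, and with the second library of mouse 12 as its only myometrium sample 1923 were called, 1847 of them shared with the full comparison. Scaled to the spike-ins rather than to the bulk of the genes (TMM), 1634 genes were called and 66.0% of them were higher in endometrium, against 50.9% under TMM, as the all-gene median of the log2 fold change moved from -0.01 to 0.19. Log2 fold changes below are endometrium over myometrium, with their standard error, and are negative where myometrium was higher.

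**Figure D1:**
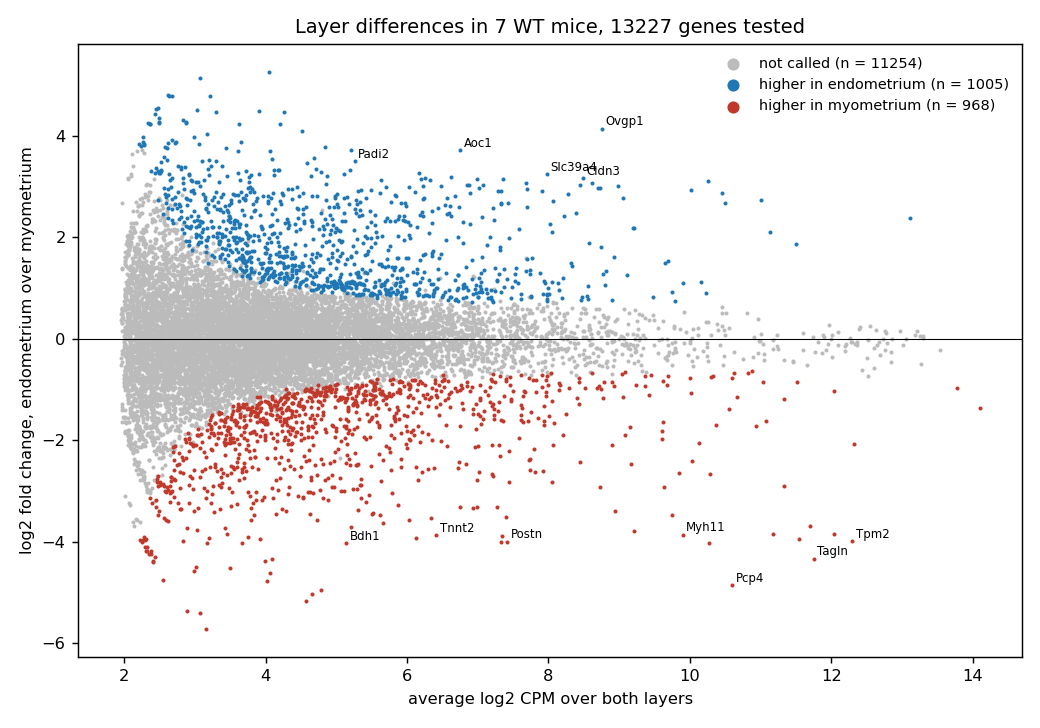
Log2 fold change of endometrium over myometrium (y axis) against the average log2 CPM over both layers (x axis) for each of 13227 genes in 7 WT mice. Blue points are the 1005 genes called higher in endometrium and red points the 968 called higher in myometrium, and 12 genes named in the text are labelled.

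Epithelial genes were higher in the scraped mucosa. Of 6 tested keratins, the intermediate filaments of epithelia, 5 were called higher in endometrium, and of 19 genes of epithelial adhesion and junctions 18 were, with a median log2 fold change of 2.56 (all genes tested: -0.01). The count of 18 was 13 without mouse 10 or with DESeq2, and 14 without mouse 1. Krt8 (chromosome 15, 101827142 to 101834773 in mm9), a keratin of simple epithelia, ranged from 159 to 655 CPM in endometrium (median 385) and from 9.28 to 170.4 CPM in myometrium (median 40.6). It was higher in endometrium in 7 of 7 mice, but the myometrium of mouse 5 reached into the endometrial range (log2 fold change 3.06 ± 0.28, adjusted p = 1.75e-10, edgeR). Its partner Krt18 ranged from 325 to 937 CPM in endometrium (median 486) and from 34.7 to 364 CPM in myometrium (median 53.0). The pattern was that of Krt8, again with mouse 5 as the myometrium above the others (log2 fold change 3.03 ± 0.29, adjusted p = 2.84e-10). Epcam (chromosome 17, 88035319 to 88050446), an adhesion molecule of epithelia, ranged from 104 to 369 CPM in endometrium (median 253) and from 8.92 to 106 CPM in myometrium (median 25.5), and its lowest endometrium, that of mouse 1, lay just under the highest myometrium, that of mouse 5 (log2 fold change 3.02 ± 0.32, adjusted p = 2.36e-09). Cdh1 (E-cadherin), which joins epithelial cells at adherens junctions, was scarce in both layers, ranging from 9.66 to 83.6 CPM in endometrium (median 27.9) and from 0 to 12.8 CPM in myometrium (median 5.47) (log2 fold change 2.38 ± 0.43, adjusted p = 4.02e-05). Among claudins, the barrier proteins of tight junctions, Cldn3 ranged from 255 to 1064 CPM in endometrium (median 607) and from 29.7 to 279 CPM in myometrium (median 58.0), and Cldn7 and Cldn10 had log2 fold changes of 3.03 and 2.72. The single junction gene that was not called, Pard6b, did not exceed 10.8 CPM in any sample. Krt17 was the keratin called higher in myometrium (log2 fold change -2.73 ± 0.84, adjusted p = 0.02), at 0 to 2.76 CPM in endometrium. Krt17 (mouse 3 or 10) lost the call when the mouse in parentheses was left out. Krt17 (0.0529) did not pass edgeR's test after scaling to the spike-ins (adjusted p in parentheses).

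**Figure D2:**
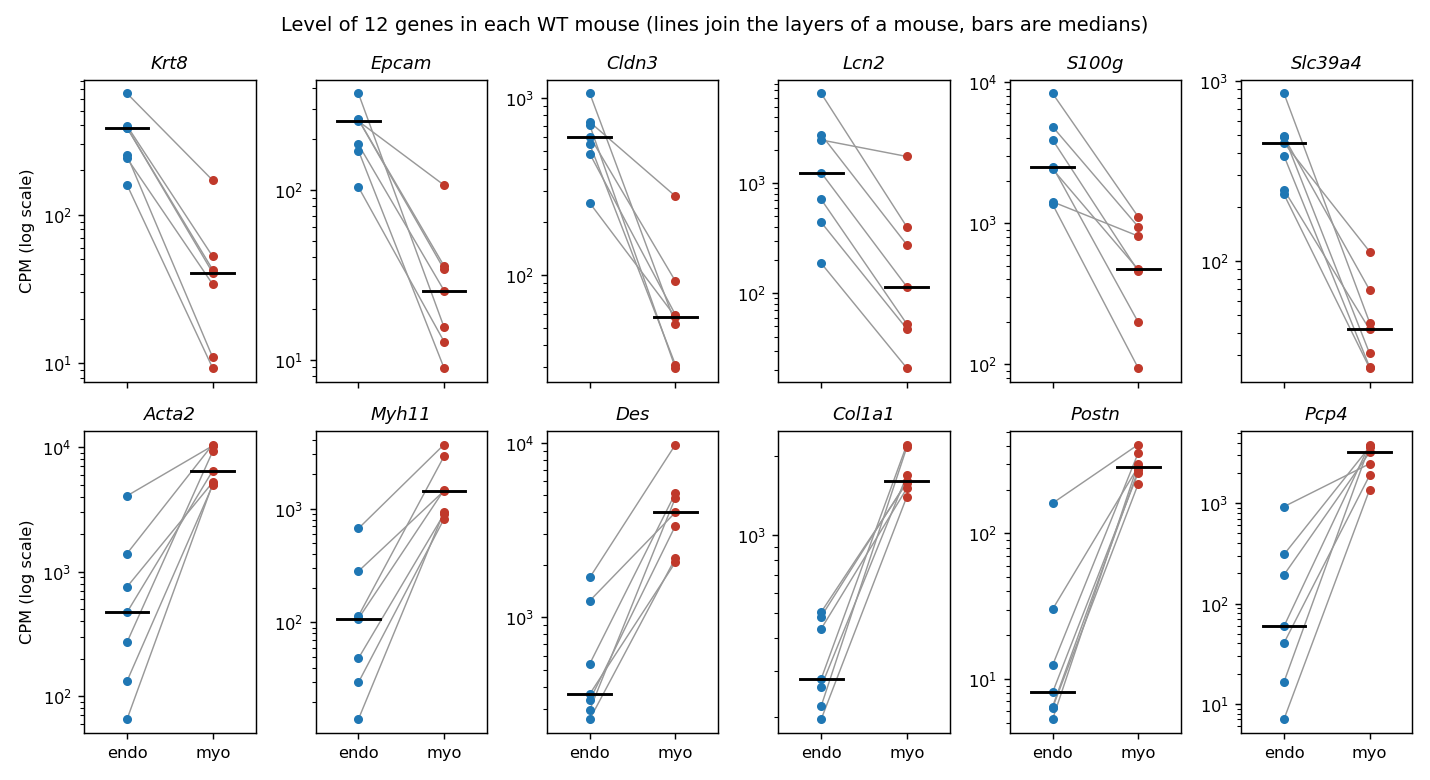
CPM on a log scale (y axis) of 12 genes in the endometrium (blue) and myometrium (red) of each of 7 WT mice; lines join the layers of a mouse and black bars are medians. Lines fall in all 7 mice for the 6 genes of the upper row and rise in all 7 mice for the 6 of the lower row.

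The transcription factors of the uterine epithelium followed. Of 17 tested, 15 were called higher in endometrium and 0 in myometrium (median log2 fold change 2.56; 16 of 17 were positive). Tfcp2l1, a grainyhead-related factor, ranged from 52.4 to 288 CPM in endometrium (median 73.6) and from 11.6 to 29.8 CPM in myometrium (median 18.2), with no overlap between the layers (log2 fold change 2.49 ± 0.31, adjusted p = 5.44e-08, edgeR). Msx1, a homeobox factor of uterine epithelium that is needed for implantation, ranged from 59.3 to 278 CPM in endometrium (median 125) and from 12.7 to 61.8 CPM in myometrium (median 25.5) (log2 fold change 2.42 ± 0.32, adjusted p = 1.57e-07). Pax8, which marks epithelia derived from the Müllerian duct, ranged from 33.5 to 109.7 CPM in endometrium (median 58.4) and from 1.98 to 38.3 CPM in myometrium (median 5.47) (log2 fold change 2.91 ± 0.39, adjusted p = 2.71e-07). The Ets factors Elf3 and Ehf had log2 fold changes of 2.67 and 2.32. Dlx5, a homeobox gene of the uterine epithelium, belonged to the 12 largest differences on the endometrial side, taken among called genes with an average log2 CPM of at least 5 and 1 sign in all mice, and ranged from 80.3 to 164 CPM in endometrium (median 121) and from 3.65 to 89.4 CPM in myometrium (median 6.96); its highest myometrium was again that of mouse 5. Emx2, a homeobox gene of the developing tract, was not called (log2 fold change -0.53 ± 0.32, adjusted p = 0.307) and was present in both layers, at medians of 45.7 and 54.7 CPM. Pax8 (3.64 without mouse 5) and Dlx5 (3.94 without mouse 5) moved by more than 1.5 times in fold when 1 mouse was left out (log2 fold change in parentheses).

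Products secreted by the luminal and glandular epithelium gave 16 genes higher in endometrium and 0 in myometrium out of 21 tested (median log2 fold change 2.69), and 8 were called without the mouse block. Lcn2 (lipocalin 2), which binds bacterial siderophores, ranged from 188 to 6578 CPM in endometrium (median 1249.7) and from 20.9 to 1757 CPM in myometrium (median 115). The spread within each layer was wide, and mouse 5 had the highest myometrial level, yet the endometrium was higher in 7 of 7 mice (log2 fold change 3.10 ± 0.33, adjusted p = 8.83e-09, edgeR). Prss28, an implantation serine proteinase made in glands, ranged from 18.9 to 3145 CPM in endometrium (median 665) and from 10.9 to 543 CPM in myometrium (median 49.3) (log2 fold change 2.77 ± 0.32, adjusted p = 1.49e-08). Pigr, the receptor that carries immunoglobulins across epithelium, ranged from 86.4 to 563 CPM in endometrium (median 278) and from 25.5 to 85.3 CPM in myometrium (median 33.5) without overlap (log2 fold change 2.67 ± 0.29, adjusted p = 5.36e-09). Muc1, the membrane mucin of the luminal surface, and Sprr2g, a small proline-rich protein, had log2 fold changes of 3.12 and 2.99. The chemokine Cxcl17, a mucosal chemoattractant, ranged from 55.2 to 353 CPM in endometrium (median 195) and from 3.65 to 259.8 CPM in myometrium (median 10.6). The myometrium of mouse 5 lay above the endometrial median, and mouse 5 was also the highest endometrium (log2 fold change 3.14 ± 0.43, adjusted p = 5.84e-06). Cst3 (cystatin C), a secreted inhibitor of cathepsins, showed no call (log2 fold change 0.07 ± 0.24, adjusted p = 0.9), at medians of 1266 and 1204 CPM. Lcn2 (0.154), Prss28 (0.143) and Cxcl17 (0.133) did not pass edgeR's test without the mouse block (adjusted p in parentheses). Cxcl17 (3.95 without mouse 5) moved by more than 1.5 times in fold when 1 mouse was left out (log2 fold change in parentheses).

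Of 22 tested genes known to respond to progesterone or estrogen in the uterus, 14 were called higher in endometrium and 1, Fkbp5, in myometrium. S100g (calbindin D9k), a calcium-binding protein induced by estrogen, ranged from 1362 to 8316 CPM in endometrium (median 2518) and from 94.2 to 1111 CPM in myometrium (median 471); all endometria exceeded all myometria (log2 fold change 2.73 ± 0.28, adjusted p = 1.58e-09, edgeR). Padi2 and Padi1 encode peptidylarginine deiminases, enzymes that turn arginine in proteins into citrulline. Padi1 ranged from 45.6 to 252 CPM in endometrium (median 134) and from 6.46 to 46.7 CPM in myometrium (median 12.9) (log2 fold change 2.75 ± 0.30, adjusted p = 5.36e-09), and Padi2 was among the 12 largest differences (log2 fold change 3.50 ± 0.45, adjusted p = 8.74e-08). Cyp26a1, which breaks down retinoic acid, ranged from 20.3 to 240.1 CPM in endometrium (median 51.0) and from 0 to 27.7 CPM in myometrium (median 5.17) (log2 fold change 2.98 ± 0.40, adjusted p = 2.94e-07). Hdc makes histamine from histidine and Aoc1 degrades histamine and polyamines, and both were higher in endometrium. Hdc ranged from 19.3 to 315 CPM in endometrium (median 65.8) and from 2.32 to 20.8 CPM in myometrium (median 14.7) (log2 fold change 3.17 ± 0.34, adjusted p = 3.14e-09). Aoc1 ranged from 8.89 to 749 CPM in endometrium (median 59.9) and from 0 to 151 CPM in myometrium (median 2.09), with mouse 5 highest in both layers (log2 fold change 3.71 ± 0.41, adjusted p = 2.78e-09). Fkbp5, a chaperone of steroid receptors that glucocorticoids and progesterone induce, was higher in myometrium in 7 of 7 mice without overlap (log2 fold change -3.14 ± 0.49, adjusted p = 3.83e-06), at no more than 5.52 CPM in endometrium. Aoc1 (0.156) did not pass edgeR's test without the mouse block (adjusted p in parentheses). Aoc1 (4.75 without mouse 5) moved by more than 1.5 times in fold when 1 mouse was left out (log2 fold change in parentheses).

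Called transport genes were mostly higher in endometrium. Of those tested 47.1% were higher in endometrium and 5.88% in myometrium, against 7.60% and 7.32% of all genes. Of 17 tested genes of epithelial water and ion transport, 8 were higher in endometrium (5 without the mouse block) and 1, the water channel Aqp1 of endothelium (log2 fold change -2.09 ± 0.28, adjusted p = 3.2e-07, edgeR), was higher in myometrium. Fxyd3 and Fxyd4 regulate the sodium pump. Fxyd3 ranged from 377 to 1119 CPM in endometrium (median 666) and from 14.9 to 213 CPM in myometrium (median 74.9) without overlap (log2 fold change 3.07 ± 0.28, adjusted p = 1.75e-10), and Fxyd4 differed by 3.15 on the log2 scale. Car12, a membrane-bound carbonic anhydrase, ranged from 45.2 to 305 CPM in endometrium (median 98.0) and from 1.29 to 32.8 CPM in myometrium (median 21.3), again without overlap (log2 fold change 3.01 ± 0.32, adjusted p = 2.18e-09). The apical water channel Aqp5 and the cytosolic carbonic anhydrase Car2 had log2 fold changes of 2.91 and 2.67. The zinc importer Slc39a4 (chromosome 15, 76442815 to 76447322) was among the 12 largest differences and ranged from 234 to 850.2 CPM in endometrium (median 453) and from 25.5 to 113 CPM in myometrium (median 41.7), with a clear gap between the layers (log2 fold change 3.23 ± 0.29, adjusted p = 1.14e-10). Dgat2, an enzyme of triglyceride synthesis, and Rab25, a GTPase of apical recycling in epithelia, were in the same group (log2 fold changes 3.18 and 3.26), as was Serinc2, which did not overlap (log2 fold change 3.32 ± 0.38, adjusted p = 7.3e-09). Slc12a2, a chloride cotransporter, was not called (log2 fold change -0.18 ± 0.31, adjusted p = 0.788). Fxyd4 (0.0664) did not pass edgeR's test without the mouse block (adjusted p in parentheses). Fxyd4 (3.75 without mouse 5), Dgat2 (3.84 without mouse 5) and Rab25 (3.97 without mouse 5) moved by more than 1.5 times in fold when 1 mouse was left out (log2 fold change in parentheses).

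Genes of protein folding in the endoplasmic reticulum gave smaller differences. Of 22 tested, 14 were called higher in endometrium and 0 in myometrium, all 22 had a positive log2 fold change, and the median was 1.04. Hspa5 (BiP), the main chaperone of this compartment, ranged from 117 to 319 CPM in endometrium (median 175) and from 46.1 to 122 CPM in myometrium (median 68.2) (log2 fold change 1.29 ± 0.26, adjusted p = 0.000235, edgeR). Hsp90b1 ranged from 216 to 476 CPM in endometrium (median 435) and from 121 to 226 CPM in myometrium (median 181), and its lowest endometrium, mouse 5, was the one endometrium below the highest myometrium (log2 fold change 1.19 ± 0.24, adjusted p = 0.000228). Creld2, which is induced by endoplasmic reticulum stress, had the largest difference of the list (log2 fold change 2.03 ± 0.33, adjusted p = 8.59e-06). Ssr4, a subunit of the translocon-associated complex, was not called (log2 fold change 0.17 ± 0.24, adjusted p = 0.733).

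The myometrial side was led by the contractile apparatus of smooth muscle. Of 30 tested genes 28 were called higher in myometrium and 0 in endometrium, all 30 had a negative log2 fold change, the median was -2.93, and in 20 genes the layers did not overlap. Acta2 (chromosome 19, 34315580 to 34329826 in mm9), the smooth muscle actin, ranged from 65.2 to 4057 CPM in endometrium (median 471) and from 4935 to 10471 CPM in myometrium (median 6447). Every myometrium lay above every endometrium, and the endometrium of mouse 3 was nearest (log2 fold change -3.85 ± 0.65, adjusted p = 0.0052, edgeR). Without mouse 3 the log2 fold change was -4.27 with an adjusted p of 7.9e-10. Myh11 (chromosome 16, 14194620 to 14291501), the smooth muscle myosin heavy chain, ranged from 14.1 to 668 CPM in endometrium (median 108) and from 811 to 3646 CPM in myometrium (median 1430.1) without overlap (log2 fold change -3.86 ± 0.33, adjusted p = 2.84e-10). Des (desmin), the intermediate filament of muscle, ranged from 261 to 1691 CPM in endometrium (median 364) and from 2070.1 to 9762 CPM in myometrium (median 3994), likewise without overlap (log2 fold change -2.91 ± 0.26, adjusted p = 1.14e-10). Cnn1 (calponin), which binds actin and inhibits the myosin ATPase, ranged from 21.2 to 1156 CPM in endometrium (median 114) and from 1141 to 3303 CPM in myometrium (median 1870.1), and here the endometrium of mouse 3 reached the lowest myometrium (log2 fold change -4.02 ± 0.38, adjusted p = 6.3e-08). Tagln (transgelin), an actin-binding protein, ranged from 72.8 to 2746 CPM in endometrium (median 279) and from 4165 to 8108 CPM in myometrium (median 6298) (log2 fold change -4.34 ± 0.73, adjusted p = 0.00615), and Tpm2, a tropomyosin, ranged from 80.9 to 4299.6 CPM in endometrium (median 770.4) and from 5531 to 13536 CPM in myometrium (median 8500.1) (log2 fold change -3.99 ± 0.66, adjusted p = 0.00457). Csrp1, Flna and Synpo2, which link actin filaments to membranes and to each other, had log2 fold changes of -3.48, -2.92 and -3.32, all without overlap. Srf, the transcription factor that binds CArG boxes in muscle genes, was not called (log2 fold change -0.95 ± 0.56, adjusted p = 0.325), and neither was the myosin phosphatase subunit Ppp1r12b (log2 fold change -1.44 ± 0.54, adjusted p = 0.063).

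CArG boxes are the short sites that serum response factor binds, and promoters of contractile genes are known for them. RefSeq promoter windows (build GRCm38.p6, 250 bases before to 50 after a gene start) could be matched for 24 of the 30 smooth muscle genes tested. An exact CArG box, read on both strands, lay in 6 of their 29 windows (20.7%), in the genes Dmd, Ldb3, Myl9, Srf and Vcl, of which Ldb3 had 2 overlapping windows. In all RefSeq promoter windows of the same length the share was 1.63% (535 of 32851). Windows were matched for 77.3% of the genes called higher in endometrium and 75.8% of those called higher in myometrium, under the 80% set as a minimum, so a comparison of all called genes is void. No AACCGGTT, the core site of grainyhead-like factors, was found in the 29 windows. It was also absent from the 19 windows of epithelial junction genes and the 14 of epithelial transcription factors. Windows were matched for 73.7% of these junction genes and 58.8% of these factors, also under the 80% minimum. Of all windows 0.146% hold the site on either strand. With so rare a site and so few windows, its absence cannot separate the layers. Myl9, the regulatory light chain that kinase activation phosphorylates (log2 fold change -3.85 ± 0.46, adjusted p = 2.33e-05, edgeR), Vcl (vinculin), which anchors actin at adhesions (log2 fold change -2.49 ± 0.36, adjusted p = 1.21e-06), and Acta1, the skeletal muscle actin described below, are shown as 3 examples because each was higher in myometrium in 7 of 7 mice and holds an exact box. The 3 examples were picked by direction, and Acta1 is not in the smooth muscle list. An exact box also lay in windows of Igf2, called higher in myometrium, and of Lef1, called higher in endometrium. Srf, Cbr2 and Tyms, which were not called, held it too. Capitals mark the box, the sequences read 5′ to 3′ along the gene, and a match is a description of the letters. Ldb3 (-5.07 without mouse 3) moved by more than 1.5 times in fold when 1 mouse was left out (log2 fold change in parentheses).
Myl9 (chr2:156775214-156775513, plus strand) is the first line, Vcl (chr14:20929148-20929447, plus strand) the second and Acta1 (chr8:123894726-123895025, minus strand) the third.
Myl9: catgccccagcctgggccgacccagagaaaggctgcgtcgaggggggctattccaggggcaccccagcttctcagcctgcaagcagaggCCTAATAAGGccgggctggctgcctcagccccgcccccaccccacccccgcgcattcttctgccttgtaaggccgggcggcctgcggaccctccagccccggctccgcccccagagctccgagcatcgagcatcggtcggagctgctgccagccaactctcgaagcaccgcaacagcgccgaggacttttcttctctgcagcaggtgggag
Vcl: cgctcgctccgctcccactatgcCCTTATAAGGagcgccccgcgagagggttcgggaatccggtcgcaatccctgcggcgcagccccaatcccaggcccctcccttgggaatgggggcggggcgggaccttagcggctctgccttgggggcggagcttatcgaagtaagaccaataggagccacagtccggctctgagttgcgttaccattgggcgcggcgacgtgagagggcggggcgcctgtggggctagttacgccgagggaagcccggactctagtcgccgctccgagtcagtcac
Acta1: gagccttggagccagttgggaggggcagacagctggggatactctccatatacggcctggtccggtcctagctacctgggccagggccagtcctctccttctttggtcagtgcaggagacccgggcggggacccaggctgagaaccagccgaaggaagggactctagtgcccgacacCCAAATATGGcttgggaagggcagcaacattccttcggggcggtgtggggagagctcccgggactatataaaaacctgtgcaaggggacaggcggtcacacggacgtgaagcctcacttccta

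Calcium handling followed the contractile genes. Of 19 tested genes 11 were called higher in myometrium and 0 in endometrium. Pcp4, a small regulator of calmodulin, had the largest myometrial difference among the called genes with an average log2 CPM of at least 5, and ranged from 7.05 to 923 CPM in endometrium (median 59.4) and from 1364 to 3829 CPM in myometrium (median 3197). The layers did not overlap, although the endometrium of mouse 3 stood far above the other endometria (log2 fold change -4.86 ± 0.89, adjusted p = 0.0113, edgeR; without mouse 3 -5.46 with an adjusted p of 1.16e-09). Kcnmb1, the subunit that tunes the large calcium-activated potassium channel, ranged from 0 to 45.5 CPM in endometrium (median 3.81) and from 40.6 to 121 CPM in myometrium (median 75.4) (log2 fold change -3.48 ± 0.43, adjusted p = 8.34e-08). Pln (phospholamban), an inhibitor of the calcium pump of the sarcoplasmic reticulum, ranged from 0 to 6.69 CPM in endometrium (median 0) and from 2.12 to 47.8 CPM in myometrium (median 22.8) (log2 fold change -3.95 ± 0.61, adjusted p = 2.83e-06), whereas the pump itself, Atp2a2, was not called (log2 fold change -0.61 ± 0.31, adjusted p = 0.211). Jph2, which couples surface and internal membranes, and Kcnj8, a potassium channel subunit, had log2 fold changes of -2.93 and -2.24. Gja1 (connexin 43), which joins myometrial cells electrically at term, was not called (log2 fold change 0.43 ± 0.34, adjusted p = 0.478; 4 mice higher in endometrium and 3 in myometrium). Kcnmb1 (-4.60 without mouse 3) and Pln (-3.31 without mouse 10) moved by more than 1.5 times in fold when 1 mouse was left out (log2 fold change in parentheses).

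Receptors that set contraction lay on both sides. Of 16 tested genes of this list 7 were called higher in myometrium and 3 in endometrium. Ptger3, a contractile prostaglandin E2 receptor, ranged from 0 to 6.90 CPM in endometrium (median 2.54) and from 14.9 to 39.6 CPM in myometrium (median 25.1), with no overlap (log2 fold change -3.45 ± 0.49, adjusted p = 4.22e-07, edgeR). Oxtr, the oxytocin receptor, was scarce, ranging from 0 to 12.4 CPM in endometrium (median 0) and from 2.13 to 44.1 CPM in myometrium (median 16.8) (log2 fold change -3.03 ± 0.53, adjusted p = 2.84e-05). Rgs2, which shortens signalling by Gq-coupled receptors, was abundant in both layers and ranged from 67.4 to 487 CPM in endometrium (median 291) and from 430.2 to 769.8 CPM in myometrium (median 555) (log2 fold change -1.17 ± 0.26, adjusted p = 0.0012). The 3 receptors higher in endometrium were Ptger2, the relaxing prostaglandin E2 receptor, Adra2a and Ednrb (log2 fold changes 2.09, 1.77 and 1.12), of which 0 were called without mouse 12. The cyclic GMP genes Pde5a and Gucy1a3 were not called (-0.53 and -1.03). Ptger2 (mouse 1, 5, 7, 8 or 12), Adra2a (mouse 3 or 12) and Ednrb (mouse 10 or 12) lost the call when the mouse in parentheses was left out. Ednrb (0.124) did not pass edgeR's test without the mouse block, and Rgs2 (0.0935) did not after scaling to the spike-ins (adjusted p in parentheses). Ednrb (0.0639) did not pass DESeq2 with the block (adjusted p in parentheses). Ptger3 (-4.11 without mouse 3), Oxtr (-4.26 without mouse 3), Ptger2 (3.10 without mouse 10) and Adra2a (2.96 without mouse 10) moved by more than 1.5 times in fold when 1 mouse was left out (log2 fold change in parentheses).

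Genes of the striated muscle sarcomere were also found in the uterine wall. Of 11 tested, 6 were called higher in myometrium and 0 in endometrium. Acta1 (chromosome 8, 126415669 to 126418651 in mm9) ranged from 3.53 to 117 CPM in endometrium (median 10.2) and from 102 to 554 CPM in myometrium (median 253) (log2 fold change -3.89 ± 0.36, adjusted p = 2.27e-10, edgeR). Tnnt2, the cardiac troponin T, ranged from 0 to 33.1 CPM in endometrium (median 3.81) and from 29.8 to 274 CPM in myometrium (median 146) (log2 fold change -3.88 ± 0.40, adjusted p = 1.64e-09), and the fast skeletal troponins Tnni2 and Tnnt3 did not overlap between the layers. Tnni2 ranged from 0 to 15.5 CPM in endometrium (median 4.14) and from 34.7 to 379 CPM in myometrium (median 51.0) (log2 fold change -3.94 ± 0.37, adjusted p = 1.75e-10), and Tnnt3 ranged from 0 to 6.90 CPM in endometrium (median 0) and from 21.2 to 65.9 CPM in myometrium (median 50.6) (log2 fold change -4.95 ± 0.52, adjusted p = 8.49e-10). Sh3bgr, a gene of striated muscle and heart, ranged from 0 to 116 CPM in endometrium (median 11.6) and from 159.7 to 466 CPM in myometrium (median 264) (log2 fold change -4.01 ± 0.46, adjusted p = 1.78e-06). The slow troponin Tnnt1 was not called (log2 fold change -1.47 ± 0.66, adjusted p = 0.141). Over all lists, where edgeR called 0 members in 1 direction DESeq2 called 0 as well, except 1 mesothelial gene higher in myometrium, and 0 or 1 member had an unadjusted p under 0.05 in that direction, except 4 cilia genes higher in endometrium. Tnnt3 (-6.56 without mouse 3) and Sh3bgr (-4.76 without mouse 3) moved by more than 1.5 times in fold when 1 mouse was left out (log2 fold change in parentheses).

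**Figure D3:**
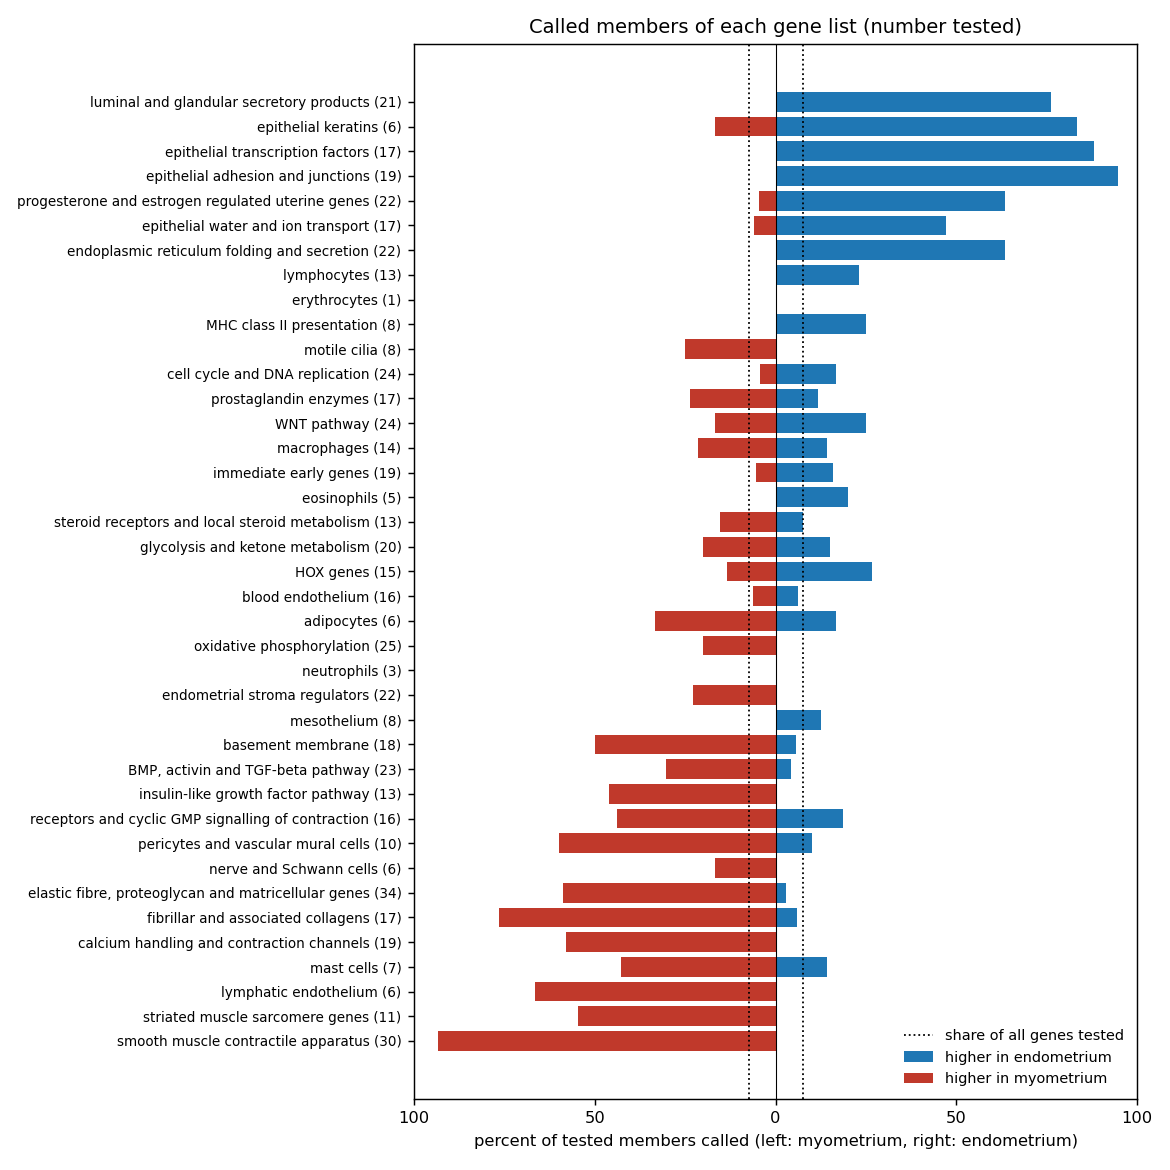
Share of the tested members of each of 39 gene lists that were called higher in endometrium (blue, to the right) or in myometrium (red, to the left), in percent, ordered by the median log2 fold change; the number tested is in parentheses. Dotted lines mark the shares over all genes tested, 7.60% and 7.32%. The epithelial lists fill the upper rows, and muscle, lymphatic, mast cell and matrix lists are among those in the lower rows.

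Interstitial matrix was myometrial as well. Of 17 tested fibrillar and associated collagens 13 were called higher in myometrium and 1 in endometrium (median log2 fold change -1.29). Col1a1, a chain of type I collagen, ranged from 196 to 505 CPM in endometrium (median 280.1) and from 1399 to 2217 CPM in myometrium (median 1599.8) (log2 fold change -2.42 ± 0.25, adjusted p = 1.64e-09, edgeR), and Col3a1, the type III chain of distensible tissue, ranged from 127 to 437 CPM in endometrium (median 287) and from 1078 to 2505 CPM in myometrium (median 1531) (log2 fold change -2.65 ± 0.27, adjusted p = 1.08e-09). No endometrium reached the lowest myometrium in either gene. Col12a1, which sits on fibril surfaces, had the largest difference of the list (log2 fold change -3.45 ± 0.42, adjusted p = 2.45e-08). Col18a1, the basement membrane collagen from which endostatin is cleaved, was the exception (log2 fold change 1.00 ± 0.28, adjusted p = 0.00916). Of 34 tested genes of elastic fibres, proteoglycans and matricellular proteins 20 were higher in myometrium and 1, Fbln1 (0.94), in endometrium. The count of 20 was 15 without mouse 10 or after scaling to the spike-ins, and 17 with DESeq2. Postn (periostin), a matricellular protein of tissues under tension, ranged from 5.29 to 161 CPM in endometrium (median 8.09) and from 219 to 408 CPM in myometrium (median 288), with mouse 3 as the highest endometrium and no overlap (log2 fold change -4.004 ± 0.41, adjusted p = 6.12e-08). The leucine-rich proteoglycan Lum (lumican) ranged from 2.58 to 51.0 CPM in endometrium (median 16.6) and from 118 to 348 CPM in myometrium (median 189.6) (log2 fold change -3.34 ± 0.33, adjusted p = 8.59e-10), and its relatives Ogn and Prelp followed (-2.63 and -2.55). Bgn (biglycan), of the same family, was not called (log2 fold change -0.33 ± 0.25, adjusted p = 0.445). Fbln1 (mouse 3, 7, 8, 10 or 12) lost the call when the mouse in parentheses was left out. Fbln1 (0.11) did not pass edgeR's test without the mouse block (adjusted p in parentheses). Col12a1 (-4.15 without mouse 3) and Postn (-4.81 without mouse 3) moved by more than 1.5 times in fold when 1 mouse was left out (log2 fold change in parentheses).

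Of 18 tested basement membrane genes, 9 were called higher in myometrium, 1 in endometrium and 8 in neither. The myometrial calls were led by Lama4, the laminin alpha chain of muscle and vessels (log2 fold change -2.54 ± 0.28, adjusted p = 6.52e-09, edgeR), which ranged from 14.1 to 29.0 CPM in endometrium (median 17.9) and from 83.3 to 132 CPM in myometrium (median 119). Hspg2 (perlecan) and Npnt (nephronectin) had log2 fold changes of -1.79 and -2.45. The member called higher in endometrium was Lamb3, a chain of the epithelial laminin 332, which reached 18.9 CPM in endometrium and 2.13 CPM in myometrium at most (log2 fold change 3.38 ± 0.84, adjusted p = 0.0034). Without mouse 10 the count higher in myometrium was 5, and it was 5 as well after scaling to the spike-ins. Lamb1 and Nid1 were not called (-0.20 and -0.56). Lamb3 (4.07 without mouse 8) moved by more than 1.5 times in fold when 1 mouse was left out (log2 fold change in parentheses).

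Genes that regulate the endometrial stroma were not higher in the scraped layer. Of 22 tested, 0 were called higher in endometrium and 5 in myometrium, and 17 had a negative log2 fold change. The chemokine Cxcl12, made by stromal cells, ranged from 24.3 to 150.3 CPM in endometrium (median 109) and from 193 to 366 CPM in myometrium (median 269.9) without overlap (log2 fold change -1.51 ± 0.27, adjusted p = 4.76e-05, edgeR). The homeobox factors Meis1 and Meis2 (-1.82 and -2.17), the proteoglycan Vcan (-2.18) and the mesenchymal factor Tcf21 (-1.66) were the others. Vim (vimentin), the intermediate filament of mesenchymal cells, ranged from 216 to 551 CPM in endometrium (median 363) and from 414 to 724 CPM in myometrium (median 533); it was lower in endometrium in 6 of 7 mice but was not called (log2 fold change -0.54 ± 0.23, adjusted p = 0.123). Summed over the 22 genes the level was 1133 to 2130 CPM in endometrium and 2041 to 2427 CPM in myometrium, and the endometrium of mouse 12 alone reached the myometrial range. Steroid receptors were present in both layers. Esr1 (estrogen receptor alpha) and Pgr (progesterone receptor) were not called (log2 fold change 0.23 ± 0.28, adjusted p = 0.671, and log2 fold change -0.80 ± 0.30, adjusted p = 0.0714). Nr3c1, the glucocorticoid receptor, passed narrowly (log2 fold change -0.99 ± 0.35, adjusted p = 0.0483). Srd5a1, which reduces testosterone to dihydrotestosterone, was higher in endometrium (log2 fold change 2.33 ± 0.37, adjusted p = 6.79e-06). Nr3c1 (mouse 1, 3, 7, 8, 10 or 12) lost the call when the mouse in parentheses was left out. Srd5a1 (0.0573) did not pass edgeR's test without the mouse block, and Tcf21 (0.0521) and Nr3c1 (0.145) did not after scaling to the spike-ins (adjusted p in parentheses). Nr3c1 (0.141) did not pass DESeq2 with the block (adjusted p in parentheses).

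**Figure D4:**
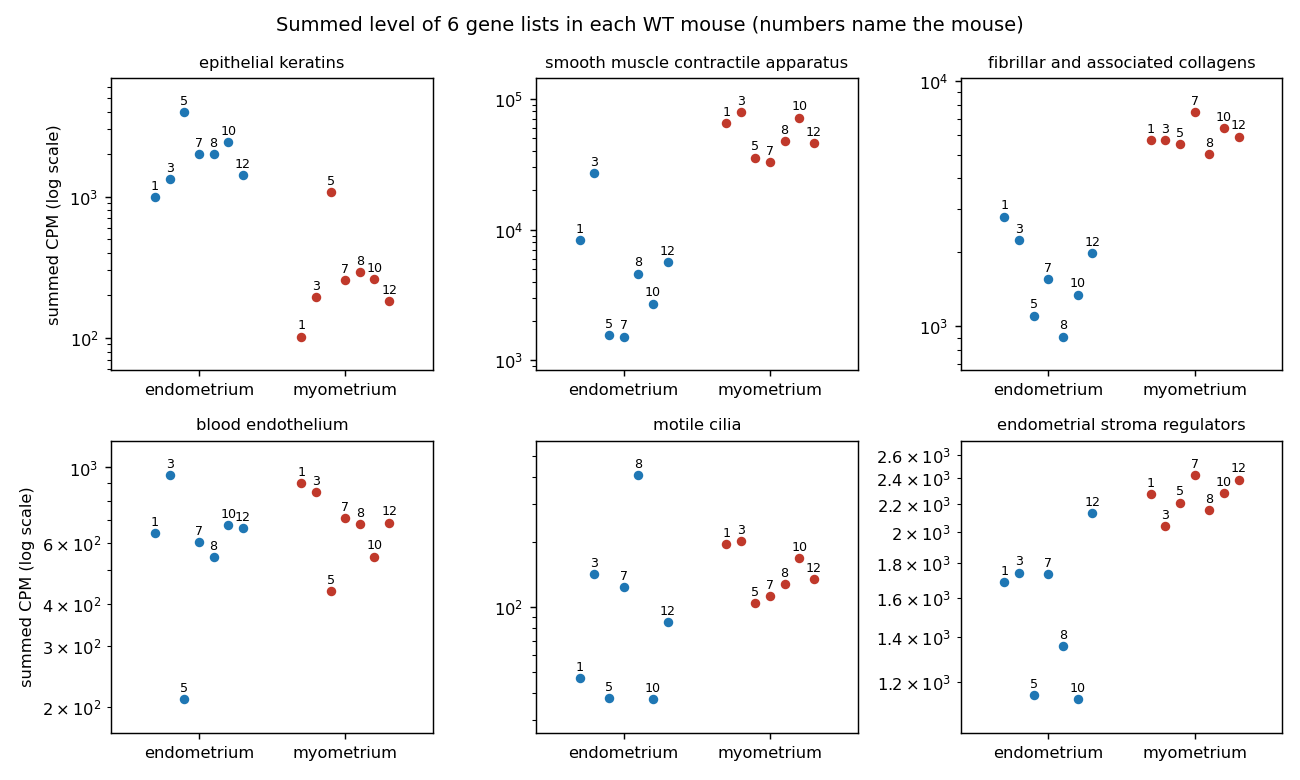
Summed CPM on a log scale (y axis) of the tested members of 6 gene lists in the endometrium (blue) and myometrium (red) of each WT mouse; the number at a point names the mouse. Smooth muscle genes in the endometrium of mouse 3 (26920 CPM), keratins in the myometrium of mouse 5 (1073 CPM) and motile cilia genes in the endometrium of mouse 8 (410.0 CPM) lie above the other mice.

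Signalling pathways mostly held members on both sides. In the WNT pathway 6 of 24 tested genes were higher in endometrium and 4 in myometrium. Rspo3, a secreted enhancer of WNT signalling, ranged from 0 to 35.9 CPM in endometrium (median 12.4) and from 63.7 to 211 CPM in myometrium (median 143) without overlap (log2 fold change -3.53 ± 0.36, adjusted p = 1.28e-09, edgeR), and the secreted WNT inhibitor Sfrp1 was myometrial as well (log2 fold change -1.73 ± 0.35, adjusted p = 0.000245), as were Sfrp4 and the receptor Fzd7 (-1.04 and -2.94). Sfrp2, a relative of Sfrp1, went the other way and ranged from 91.6 to 366 CPM in endometrium (median 181) and from 58.6 to 169 CPM in myometrium (median 87.9) (log2 fold change 1.17 ± 0.25, adjusted p = 0.000692). The ligand Wnt7b, the receptor Fzd6, the inhibitors Dkk2 and Dkk3 and the transcription factor Lef1 were the other endometrial members (log2 fold changes 0.92 to 1.56), and 3 endometrial calls were left without mouse 1 and 2 with DESeq2. In the insulin-like growth factor (IGF) pathway 6 of 13 tested genes were higher in myometrium and 0 in endometrium. The binding protein Igfbp6 ranged from 173 to 975 CPM in endometrium (median 371) and from 540.2 to 1902 CPM in myometrium (median 1201) (log2 fold change -1.65 ± 0.26, adjusted p = 6.79e-06), Igfbp5 followed (-1.70), Igfbp2 was at 0 to 2.58 CPM in endometrium and 0 to 62.0 CPM in myometrium (log2 fold change -4.03 ± 0.66, adjusted p = 9.43e-06), and the ligand Igf2, near the detection limit, had a log2 fold change of -2.08, while Igf1 was not called (log2 fold change -0.56 ± 0.28, adjusted p = 0.191). In the BMP, activin and TGF-beta pathway 7 of 23 tested genes were higher in myometrium (4 after scaling to the spike-ins), among them the activin subunit Inhbb (-1.68) and the target gene Id2 (log2 fold change -1.28 ± 0.27, adjusted p = 0.0005). The ligand Bmp7 was the member higher in endometrium (log2 fold change 1.70 ± 0.44, adjusted p = 0.00463). Sfrp4 (mouse 1, 7 or 8), Wnt7b (mouse 7), Fzd6 (mouse 1 or 12), Dkk2 (mouse 1, 3, 7 or 10), Dkk3 (mouse 1, 3 or 8) and Igf2 (mouse 1, 7 or 12) lost the call when the mouse in parentheses was left out. Sfrp4 (0.0824) and Fzd6 (0.126) did not pass edgeR's test without the mouse block, and Sfrp4 (0.188) did not after scaling to the spike-ins (adjusted p in parentheses). Wnt7b (0.0869), Fzd6 (0.16), Dkk2 (0.0602) and Lef1 (0.0518) did not pass DESeq2 with the block (adjusted p in parentheses). Fzd7 (-3.98 without mouse 3) moved by more than 1.5 times in fold when 1 mouse was left out (log2 fold change in parentheses).

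Of the HOX genes, which pattern the reproductive tract, 4 neighbours of the HoxB cluster were called together. Hoxb5, Hoxb6, Hoxb7 and Hoxb8 were higher in endometrium, and Hoxa9 and Hoxc6 in myometrium, out of 15 tested. Hoxb8 ranged from 8.28 to 40.2 CPM in endometrium (median 22.9) and from 0 to 4.26 CPM in myometrium (median 1.98), without overlap (log2 fold change 3.22 ± 0.49, adjusted p = 2.23e-06, edgeR). Hoxb6 ranged from 10.0 to 70.1 CPM in endometrium (median 27.9) and from 1.82 to 21.3 CPM in myometrium (median 4.25) (log2 fold change 2.33 ± 0.36, adjusted p = 3.36e-06). Hoxa10, which is needed for implantation, was not called (log2 fold change -0.31 ± 0.24, adjusted p = 0.461), although it was lower in endometrium in 7 of 7 mice. Prostaglandin enzymes were called on both sides. Ptgs1 (cyclooxygenase 1), which makes the common precursor, was higher in endometrium and ranged from 31.7 to 119 CPM in endometrium (median 69.7) and from 13.9 to 113 CPM in myometrium (median 31.0) (log2 fold change 1.11 ± 0.29, adjusted p = 0.00543). Ptgis, which makes prostacyclin, was higher in myometrium and ranged from 0 to 103 CPM in endometrium (median 11.4) and from 63.9 to 430.3 CPM in myometrium (median 138) (log2 fold change -3.31 ± 0.36, adjusted p = 4.41e-09). Hpgd, which inactivates prostaglandins, also was higher in myometrium (log2 fold change -1.13 ± 0.38, adjusted p = 0.035); 11 of the 17 tested enzymes were not called, and the count of 4 higher in myometrium was 1 or 2 without mouse 1, 3, 5, 7, 8 or 10, and 1 without the block, with DESeq2 or after scaling to the spike-ins. Hoxc6 (mouse 7, 8 or 12) and Hpgd (mouse 5, 7, 8 or 10) lost the call when the mouse in parentheses was left out. Ptgs1 (0.0905) and Hpgd (0.093) did not pass edgeR's test without the mouse block, and Hoxa9 (0.0572), Hoxc6 (0.0674) and Hpgd (0.209) did not after scaling to the spike-ins (adjusted p in parentheses). Hoxc6 (0.078) and Hpgd (0.0764) did not pass DESeq2 with the block (adjusted p in parentheses). Hoxa9 (-3.01 without mouse 12) moved by more than 1.5 times in fold when 1 mouse was left out (log2 fold change in parentheses).

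**Figure D5:**
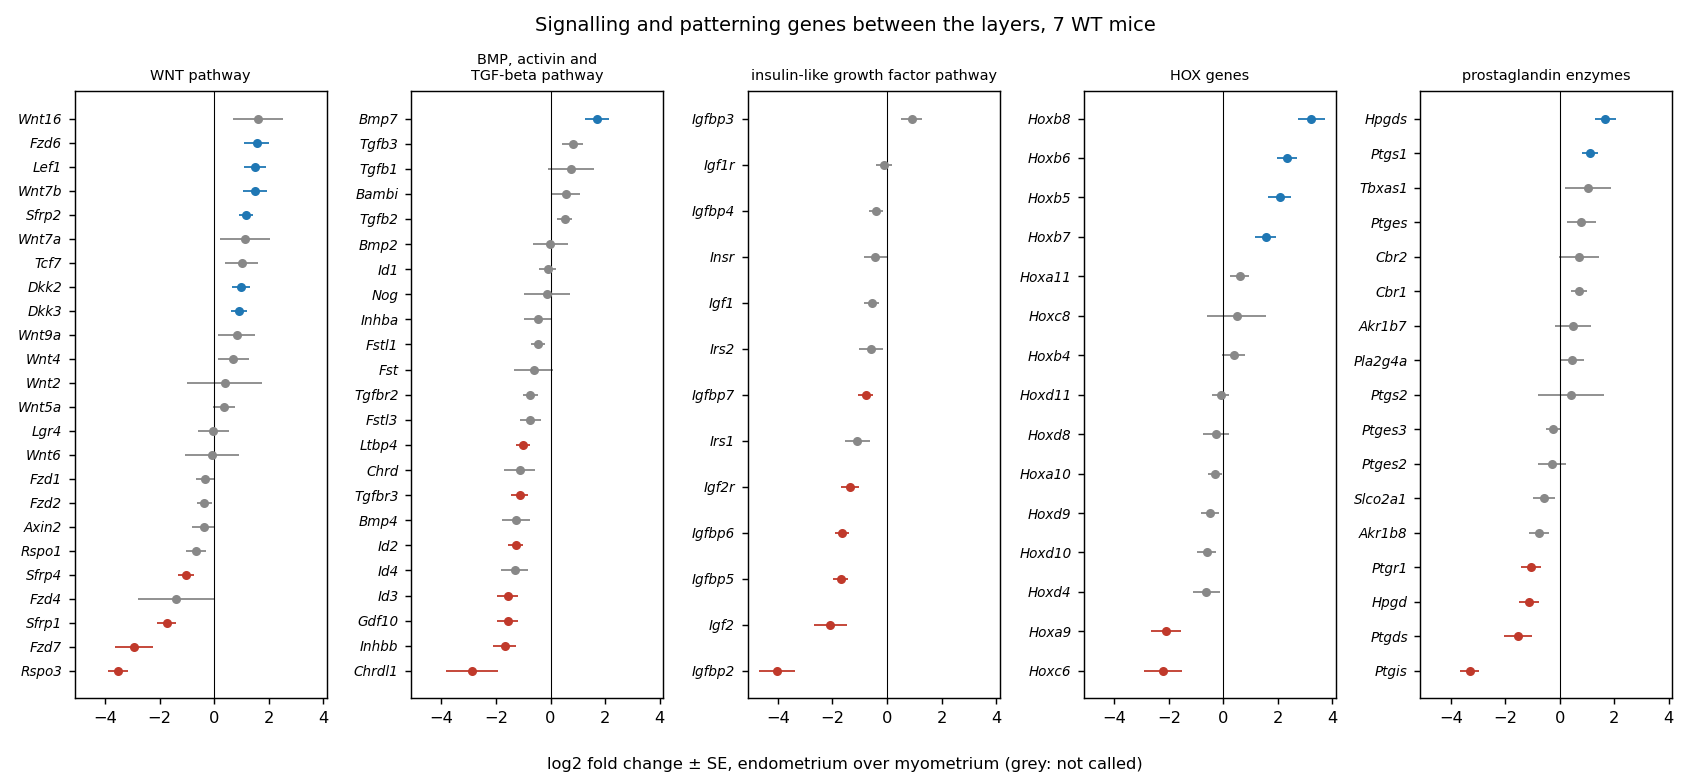
Log2 fold change of endometrium over myometrium (x axis, with its standard error) for each tested gene of 5 signalling and patterning lists in 7 WT mice, ordered within each list. Blue points were called higher in endometrium, red points higher in myometrium and grey points in neither; Hoxb8 at 3.22 and Igfbp2 at -4.03 are the extremes on the right and left.

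Vessels were compared by marker lists. Of 16 tested genes of blood endothelium, 1 was higher in each layer, Flt1, a VEGF receptor, in endometrium (log2 fold change 1.71 ± 0.46, adjusted p = 0.00722, edgeR) and Cldn5, the claudin of endothelial junctions, in myometrium (log2 fold change -2.49 ± 0.36, adjusted p = 1.18e-06); the other 14 were not called, and the summed level was 210.3 to 952 CPM in endometrium and 435 to 901 CPM in myometrium. The blood endothelial calls made up 6.25% of the tested genes in each direction, near the 7.60% and 7.32% of all genes tested. Lymphatic genes were myometrial, with 4 of 6 tested called and 0 higher in endometrium. Lyve1, the hyaluronan receptor of lymphatic vessels, ranged from 0 to 29.0 CPM in endometrium (median 3.81) and from 25.5 to 51.7 CPM in myometrium (median 39.8) (log2 fold change -2.68 ± 0.41, adjusted p = 2.78e-06). Of 10 tested mural cell genes 6 were higher in myometrium, among them Mcam (-2.25) and Pdgfrb (-1.21), and 3 after scaling to the spike-ins, while Anpep, which epithelia also make, was higher in endometrium (log2 fold change 2.36 ± 0.31, adjusted p = 2.47e-07). Among fat genes, the fatty acid binding protein Fabp4, which endothelium shares, and Lpl were higher in myometrium (-3.04 and -1.77) and Pck1, an enzyme of glucose synthesis, in endometrium (2.75). In the mesothelium list the single call was Krt19 in endometrium (2.26), a keratin that uterine epithelium makes too, and the defining marker Upk3b was not called (log2 fold change -1.43 ± 0.54, adjusted p = 0.0675). With DESeq2 Upk3b was called higher in myometrium (adjusted p = 0.0115). Pmp22, a myelin protein also made by fibroblasts, was the single nerve gene called, at -1.61, and 3 were called without mouse 8. Flt1 (mouse 10) lost the call when the mouse in parentheses was left out. Lyve1 (-3.57 without mouse 3) and Fabp4 (-3.88 without mouse 3) moved by more than 1.5 times in fold when 1 mouse was left out (log2 fold change in parentheses).

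Leukocyte markers differed in part. Of 13 tested lymphocyte genes 3 were higher in endometrium and 0 in myometrium, and all 3 are genes of cytotoxic and natural killer cells, Nkg7 (log2 fold change 1.62 ± 0.41, adjusted p = 0.00436, edgeR), Gzma (log2 fold change 1.09 ± 0.33, adjusted p = 0.0176) and Klrb1c (log2 fold change 2.38 ± 0.74, adjusted p = 0.0211). Without mouse 3 or 12, or with DESeq2, the count was 1. Other markers of cytotoxic and natural killer cells were not called, Gzmb (log2 fold change 0.74 ± 0.44, adjusted p = 0.299), Il2rb (log2 fold change 0.98 ± 0.45, adjusted p = 0.155) and Ncr1 (log2 fold change 0.06 ± 0.60, adjusted p = 0.966). The T and B cell genes Cd3e, Cd3d, Cd3g, Cd4, Cd79a and Cd79b were not called. Of 7 tested mast cell genes 3, all of them proteases, were higher in myometrium, 1 in endometrium and 3 were not called. Cma1, a chymase, ranged from 0 to 35.9 CPM in endometrium (median 5.52) and from 25.5 to 144 CPM in myometrium (median 62.6) (log2 fold change -3.14 ± 0.44, adjusted p = 1.06e-06), and Cpa3, a carboxypeptidase, was at 0 to 3.35 CPM in endometrium and 6.94 to 17.0 CPM in myometrium, without overlap (log2 fold change -3.42 ± 0.65, adjusted p = 9.84e-05). The proteases Mcpt4 and Tpsb2 had log2 fold changes of -2.93 and -2.34, of which that of Tpsb2 was not called (adjusted p = 0.0604, edgeR). Without mouse 3, whose endometrium stood apart in muscle genes, they were -5.37 with an adjusted p of 6.51e-09, and -3.22 with an adjusted p of 8.29e-05. Hdc, which mast cells also use, went the other way, as given above. Macrophage genes were called on both sides. Cd14 and Cd68 were higher in endometrium (2.42 and 1.39), Pf4, Mrc1 and Csf1r in myometrium (-1.79, -1.26 and -1.01), and 9 of 14 were not called; 1 was left higher in myometrium without mouse 7, with DESeq2 or with the spike-ins. Pf4 ranged from 1.76 to 38.6 CPM in endometrium (median 15.5) and from 39.4 to 70.3 CPM in myometrium (median 51.5) without overlap. Of 8 genes of MHC class II presentation, H2-Aa and Ctss were higher in endometrium (0.81 and 1.19), and 1 was left without mouse 7, 8 or 12. Among 5 eosinophil genes the single call was Alox15 (log2 fold change 3.55 ± 0.45, adjusted p = 6.2e-08), a lipoxygenase that epithelia make too, and the granule protein gene Prg2 was close to the detection limit in both layers. Of 3 neutrophil genes 0 were called by edgeR or by DESeq2, and 0 had an unadjusted p under 0.05. Gzma (mouse 3 or 12), Klrb1c (mouse 3, 8 or 12), Mrc1 (mouse 7, 8 or 12), Csf1r (mouse 1, 3, 7 or 10) and H2-Aa (mouse 7, 8 or 12) lost the call when the mouse in parentheses was left out. Gzma (0.322), Mcpt4 (0.138) and Cd68 (0.0773) did not pass edgeR's test without the mouse block, and Mrc1 (0.064), Csf1r (0.157) and H2-Aa (0.0637) did not after scaling to the spike-ins (adjusted p in parentheses). Gzma (0.0568), Klrb1c (0.0911), Mrc1 (0.117) and Csf1r (0.0541) did not pass DESeq2 with the block (adjusted p in parentheses). Klrb1c (3.00 without mouse 7) and Cma1 (-4.16 without mouse 3) moved by more than 1.5 times in fold when 1 mouse was left out (log2 fold change in parentheses).

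Most genes of proliferation, early response and energy metabolism were not called. Called higher in endometrium were 16.7% of cell cycle, 15.8% of early response, 0% of oxidative phosphorylation and 15% of glycolysis and ketone genes. Called higher in myometrium were 4.17%, 5.26%, 20% and 20%, in the same order. Over all genes tested the shares were 7.60% and 7.32%. Of 24 tested cell cycle genes 4 were higher in endometrium (2 with DESeq2), with Top2a, which untangles replicated DNA, ranging from 14.2 to 191 CPM in endometrium (median 53.3) and from 10.9 to 38.2 CPM in myometrium (median 23.2) (log2 fold change 1.47 ± 0.32, adjusted p = 0.000692, edgeR), and 1 in myometrium, the cyclin Ccnd1 (log2 fold change -1.12 ± 0.29, adjusted p = 0.00432). Of 19 immediate early genes Ier3, Ier2 and Junb were higher in endometrium (2.10, 1.22 and 1.10) and Jun in myometrium (-1.03), while Fos and Egr1 were not called. Of 25 tested subunits of oxidative phosphorylation 5 were higher in myometrium and 0 in endometrium, but 0 were called in myometrium after scaling to the spike-ins. Cox6c, a subunit of cytochrome oxidase, ranged from 792 to 1970.2 CPM in endometrium (median 1675) and from 3072 to 4375 CPM in myometrium (median 3342) without overlap (log2 fold change -1.18 ± 0.22, adjusted p = 0.000117). Ketone enzymes were myometrial. Bdh1, which interconverts the ketone bodies, was among the 12 largest differences and ranged from 0 to 15.2 CPM in endometrium (median 1.76) and from 27.4 to 105 CPM in myometrium (median 57.5) (log2 fold change -4.04 ± 0.44, adjusted p = 2.35e-09), and Oxct1, which activates ketone bodies for oxidation, ranged from 29.7 to 89.7 CPM in endometrium (median 71.1) and from 141 to 189.9 CPM in myometrium (median 173) (log2 fold change -1.48 ± 0.26, adjusted p = 3.83e-05); neither overlapped. The glycolytic genes Hk2, Aldoc and Ldha were higher in endometrium (1.95, 2.34 and 0.76) and Pfkm, the muscle phosphofructokinase, in myometrium (-1.35). In the list of glycolysis and ketone genes the 3 endometrial calls fell to 1 without mouse 8 and the 4 myometrial calls to 2 without mouse 10 or with the spike-ins. Ier2 (mouse 5 or 7), Jun (mouse 8 or 10), Aldoc (mouse 8), Ldha (mouse 3, 7, 8, 10 or 12) and Pfkm (mouse 3, 5, 7, 10 or 12) lost the call when the mouse in parentheses was left out. Jun (0.0518) did not pass edgeR's test without the mouse block, and Ccnd1 (0.0778), Jun (0.0993), Cox6c (0.0719), Ldha (0.125) and Pfkm (0.0989) did not after scaling to the spike-ins (adjusted p in parentheses). Ier2 (0.0683), Aldoc (0.192) and Pfkm (0.124) did not pass DESeq2 with the block (adjusted p in parentheses). Bdh1 (-5.07 without mouse 3) and Aldoc (1.13 without mouse 8) moved by more than 1.5 times in fold when 1 mouse was left out (log2 fold change in parentheses).

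Ovgp1, the oviduct-specific glycoprotein, had the largest endometrial difference among the called genes with an average log2 CPM of at least 5. It ranged from 8.09 to 5461 CPM in endometrium (median 78.7) and from 0 to 33.5 CPM in myometrium (median 10.9). Mouse 8 held 5461 CPM in endometrium, far above the other mice, but the endometrium was higher in 7 of 7 mice (log2 fold change 4.14 ± 0.66, adjusted p = 0.000221, edgeR). Without mouse 8 the log2 fold change was 3.00 with an adjusted p of 1.49e-06, and without mouse 7 it was 4.78. The endometrium of mouse 8 was also highest for the cilia gene Cfap126, which ranged from 0 to 98.0 CPM in endometrium (median 3.81) and from 0 to 4.64 CPM in myometrium (median 2.58) and was not called (log2 fold change 1.93 ± 0.76, adjusted p = 0.0846); without mouse 8 its log2 fold change was -0.02 with an adjusted p of 0.995. Of 8 tested genes of motile cilia, 0 were higher in endometrium and 2, Rsph1 and Tppp3, in myometrium (log2 fold change -1.39 ± 0.49, adjusted p = 0.0493, and log2 fold change -0.92 ± 0.31, adjusted p = 0.035). The list median was 0.53, 5 of the 8 were positive, and 4 had an unadjusted p under 0.05 toward endometrium (edgeR). Myometrial calls left were 0 to 2 when 1 mouse was removed. Without the mouse block 0 were called higher in myometrium and 1 in endometrium, and after scaling to the spike-ins 0 and 2. Without mouse 8 the log2 fold change of Rsph1 was -2.50 with an adjusted p of 0.000423, and that of Tppp3 was -1.23 with an adjusted p of 0.00706. Rsph1 (mouse 1, 3, 5, 7, 10 or 12) and Tppp3 (mouse 1, 3, 5, 10 or 12) lost the call when the mouse in parentheses was left out. Rsph1 (0.359) and Tppp3 (0.155) did not pass edgeR's test without the mouse block, and Rsph1 (0.197) and Tppp3 (0.313) did not after scaling to the spike-ins (adjusted p in parentheses).

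The same contrast was available in the Plag1KO mice of the study, 7 animals (9 endometrium and 7 myometrium libraries) that share no sample with the WT mice. There 3035 of 12969 genes tested were called. Of the WT calls, 1517 were called in KO mice too, all in the same direction, which is 76.89% of the WT calls and 49.98% of the KO calls. The sign of the log2 fold change was the same for 1920 of the 1952 WT calls that were tested in KO mice (98.4%). The median log2 fold change of the smooth muscle list was -2.93 in WT and -3.26 in KO, and that of the junction list was 2.56 and 2.70. Whether any layer difference itself differed between the genotypes was not tested here.

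Some of these values are uncertain because the genes overlap others or share sequence, and the use of strand in counting is not stated. In the mm9 annotation Ovgp1 overlaps Wdr77, Pcp4 overlaps Igsf5, Ndufb8 overlaps Sec31b and Hoxb7 overlaps Hoxb8 on the same strand. On the opposite strand Des overlaps Gm15179, Cldn3 overlaps Wbscr25, Tagln overlaps Pcsk7, S100g overlaps Ctps2, Padi1 overlaps Gm13032, Padi2 overlaps Gm13031, Fxyd3 overlaps Lgi4, Kcnmb1 overlaps Kcnip1, Cox6c overlaps Vps13b, Ccnd1 overlaps Oraov1, Oxct1 overlaps BC037032 and H2-Aa overlaps H2-Ab1. The first 150 bases of Hoxb6, Hoxb7, Klrb1c, Lef1, Meis2 and Sh3bgr transcripts share a run of 40 or more bases with other genes.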

How the data were processed

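Reads were aligned to mm9 by the authors. For counting per gene the submitters' processing notes name HTSeq and the study's methods Homer, and which made the deposited table is not given in the sources used here. The table holds raw counts of 24422 gene symbols and 92 ERCC spike-ins for 45 libraries. Whether counting used strand and how reads of near-identical genes were assigned is not given in the sources used here. Libraries were grouped by their titles, and counts of the 2 myometrium libraries of mouse 12 were summed. These 2 libraries differed less than libraries of different mice (chi-square per degree of freedom 2.22 against 3.68 to 9.74) and were counted as 1 sample.

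Genes with 1 CPM in at least 5 samples were kept and tested with edgeR 4.0.16 (R 4.3.3; TMM factors, quasi-likelihood test) with the mouse as a block, since both layers came from the same animal, and p-values were adjusted by Benjamini-Hochberg over all genes tested, with 0.05 as the threshold. The deviations of the layers of a mouse from their group means correlated weakly, at 0.0281 to 0.132 (mean 0.0898), against a mean of -0.0153 between mice. The robust fit (legacy = FALSE, robust = TRUE) was chosen after the data were seen, because the default options returned an infinite prior; the default is an alternative. The alternatives were DESeq2 1.42.0, other scalings, other filters, no block, plate rows A to C or D to F alone and leaving out each mouse. The fit was tested on simulated counts with known changes. A difference in depth was tested by exact sign flips over mice, where 0.0156 is the smallest p.

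CPM are counts scaled to the library total after adjustment by the TMM factor, and no precision beyond counting is implied for values near the limit of 3 counts. The named genes were 8 layer markers, the 12 largest changes per direction among called genes whose average log2 CPM was at least 5, with 1 sign in all 7 mice, and in each list up to 5 called members of smallest p and up to 2 abundant members not called. Other genes were named after their values were seen, where a count was small or a marker defines a cell type. Some genes that this rule names are not reported here. The members and the gene lists were chosen with earlier results of these data known. Gene coordinates are from GENCODE vM1 (NCBIM37, mm9), and promoter sequences from RefSeq (GRCm38.p6).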

Additional observations from a re-analysis of the deposited data

Results flagged for a closer look

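Each group of 7 mice was tested for a value far from the others (Dixon's test at the 95% level on log2 of CPM + 1). Of 204 groups, 19 held such a value, and chance gives about 1 in 20 groups. The smooth muscle sum in the endometrium of mouse 3 was not among them. Neither were the keratin sum in the myometrium of mouse 5 and the cilia sum in the endometrium of mouse 8. In mouse 5, the myometrium was highest for Krt18 (364.2 CPM), Cxcl17 (259.8 CPM), the summed junction genes (941.4 CPM) and the summed epithelial transport genes (1252 CPM), and lowest for the summed receptors of contraction (664.5 CPM). Its endometrium was lowest for Hsp90b1 (215.6 CPM), Cox6c (792.5 CPM), the summed blood endothelial genes (210.3 CPM) and the summed neutrophil genes (0 CPM). That endometrium library was shallow, at 308575 counts, so that 3 counts equalled 10.0 CPM before the TMM adjustment. The endometrium of mouse 8 was highest for Ovgp1 (5461 CPM) and Cfap126 (98.02 CPM), and its myometrium for the summed adipocyte genes (469.1 CPM). The endometrium of mouse 3 was highest for Tnnt3 (6.897 CPM), and its myometrium lowest for Hdc (2.319 CPM). In mouse 12, the myometrium was lowest for Fxyd3 (14.87 CPM) and Lama4 (83.26 CPM) and highest for the summed HOX genes (451 CPM), and the endometrium was highest for the summed prostaglandin enzymes (1022 CPM). In mouse 10 the endometrium was highest for the summed steroid receptor and steroid metabolism genes (1507 CPM).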

How the results depend on the processing

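The count of genes called between the layers in WT was 1442 (without mouse 10) to 2180 (without mouse 5) when 1 mouse was left out, and 721 to 1096 of them were higher in endometrium and 721 to 1084 in myometrium. With fewer mice the counts fell, to 1020 (516 and 504) in plate rows A to C, with 5 mice, and to 212 (107 and 105) in rows D to F, with 2 mice. Spike-in scaling left 1634 calls, 556 of them higher in myometrium. DESeq2 gave 1458, no gene filter 1996, and the default quasi-likelihood options 1850. Without the mouse block, so that the pairing was ignored, 1893 genes were called, 1737 of them shared with the blocked comparison, and 937 were higher in endometrium. In KO mice the count was 2425 to 2783 with 1 mouse left out, 1393 in rows A to C and 1134 in rows D to F, and spike-in scaling gave 4445 calls, 3749 of them (84.3%) higher in endometrium, against 3035 (1670 and 1365). The spike-in share by layer in WT, endometrium minus myometrium, was 0.0998 percentage points and ranged from -0.0980 (without mouse 1) to 0.244 (without mouse 12), and it was -0.0953 without mouse 5. No named gene changed sign with a call under any alternative. Depth limits genes near 3 counts, and a library of 264095 counts resolves less than one of 868562.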
